A study of Mus musculus with 21 samples.

Results

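Day 4 mouse embryoid bodies contain FLK1-positive mesoderm that can be split by a second receptor, PDGFRalpha, and the question here is which genes separate the 2 resulting gates and whether the separation is the same when cells with an active Etv2 reporter have been sorted away. FLK1+ cells that also carry PDGFRalpha are called DP, and FLK1+ cells without PDGFRalpha are called SP. The gate effect is the SP level of a gene relative to its DP level, on the log2 scale. It was measured once in wildtype cells of the line A2lox.Cre, whose gates hold cells with and without Etv2 expression, and once in cells of the line T-GFP; Etv2-tdTomato that were negative for the tdTomato reporter of Etv2. The difference of these 2 effects, wildtype minus Etv2-negative, was then tested for each gene. These groups took 12 of the 21 libraries of the series, 3 for each of wildtype DP, wildtype SP, Etv2-negative DP and Etv2-negative SP.

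All 4 groups came from mouse embryonic stem cells differentiated as embryoid bodies and collected on day 4, and the labels give no doxycycline treatment for any of them. The stem cells had been kept on irradiated embryonic fibroblast feeders and moved to gelatin without feeders before differentiation. A2lox.Cre is a wildtype line made for inserting doxycycline-inducible transgenes. The other line carries a GFP reporter of T, a transcription factor of the primitive streak and nascent mesoderm, and a tdTomato reporter of Etv2, and the labels do not say that GFP was used in the sort. The labels do not say whether replicates came from separate differentiations, so the p-values measure the spread between these libraries, which may be technical. Line, way of counting reads and removal of Etv2 reporter cells all change together between the sets and cannot be told apart.

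Etv2 is an ETS-family transcription factor that acts briefly in FLK1+ mesoderm and is required for the endothelial and blood lineages. It switches on a set of endothelial and blood regulators, among them Tal1, Lmo2, Gata2 and the ETS factors Fli1 and Erg, some of which then maintain the program without it. PDGFRalpha is lost from FLK1+ cells as they move toward blood and endothelium and is kept by cells with paraxial and cardiac potential, so the SP gate is known as the one richer in hemato-endothelial progenitors.

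Gene counts ran from 22406153 to 32777143 per library, and correlations of log levels between replicates of a group from 0.989 to 0.994. Pseudogenes took 12.2 to 13.6% of the counts in the 6 Etv2-negative libraries and 0.549 to 0.636% in the 6 wildtype libraries, so levels, given as the usual library-scaled counts (CPM) with scaling inside a set, are compared only inside a set. Ribosomal RNA took 1.40% of counts in Etv2-negative SP replicate 2, between 0.212 and 0.432% in the other Etv2-negative libraries and 0.682 to 2.28% in wildtype. Of the markers of other cell types, Dpt and Lum (fibroblasts), Olig2 (neural progenitors), Afp (liver-type endoderm) and Ptprc (mature blood) were at or below 0.0918 CPM in all 12 libraries, where a count of 0 allows up to 0.134 CPM for counting error alone. Others were present: Thy1 stood at 1.42 to 5.69 CPM, Postn reached 0.426, Pax6 0.374, Sox1 0.335 and Ttr 0.307 CPM, and Foxa2 stood at 0.979 to 8.39 CPM. Epcam, also on the endoderm marker list, stood at 13.1 to 34.7 CPM. Sox17 of that list was higher in SP without overlap in both sets. It stood at 4.25 to 10 CPM in wildtype DP against 12.8 to 15.6 CPM in SP. In Etv2-negative cells it stood at 1.62 to 3.14 CPM in DP against 6.82 to 8.32 CPM in SP. Of the markers of undifferentiated cells, Nanog stood at 7.74 to 35.4, Zfp42 at 2.37 to 7.19 and Esrrb at 0.949 to 10.6 CPM. The 12 genes of the feeder fibroblast list summed to 91.6 to 110 CPM in wildtype DP, 96.5 to 104 in wildtype SP, 156 to 200.2 in Etv2-negative DP and 151 to 169 in Etv2-negative SP. Cxcl12 and Serpinf1 of that list rose in wildtype SP and Pdpn in Etv2-negative SP, and the part of such cells in the gate effects was not tested.

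The genes of the sorted receptors went with the gates in both sets. Pdgfra, which encodes PDGFRalpha, stood at 252, 304 and 384 CPM in wildtype DP and at 30.6, 44.0 and 43.7 CPM in wildtype SP. In Etv2-negative cells it stood at 276, 280 and 216 CPM in DP and at 54.5, 60.6 and 42.2 CPM in SP. The gates did not overlap in either set, and the log2 gate effect was -2.99 ± 0.18 (standard error of the model, as for every error of a fold change here) in wildtype and -2.30 ± 0.17 in Etv2-negative cells. The difference of -0.69, with a 95% interval from -1.23 to -0.16, was not called (edgeR adjusted p = 0.39). Kdr, which encodes FLK1 and was positive in both gates, had gate effects of 0.04 ± 0.10 in wildtype and -0.16 ± 0.10 in Etv2-negative cells, neither of which was called.

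Etv2 itself was read in the reporter-negative cells as well. It stood at 52.0, 48.9 and 57.2 CPM in wildtype DP and at 87.8, 73.0 and 116 CPM in wildtype SP. In Etv2-negative cells it stood at 23.6, 19.7 and 18.4 CPM in DP and at 28.1, 26.9 and 26.0 CPM in SP. SP lay above DP in each set without overlap. The gate effect was 0.81 ± 0.14 in wildtype, adjusted p = 0.0013 by edgeR's quasi-likelihood test, and 0.39 ± 0.14 in Etv2-negative cells, where it missed the threshold at adjusted p = 0.12. The difference of 0.42 ± 0.20 was not called either (adjusted p = 0.57). TdTomato-positive cells of the same line had more Etv2 than negative ones, by 1.74 in SP and 1.53 in DP on the log2 scale. T had gate effects of 0.10 ± 0.26 and -0.73 ± 0.26, and neither was called.

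A majority of the genes called for the gate in Etv2-negative cells was also called in wildtype, while most wildtype calls were not shared. Of 17871 genes tested, 3127 (17.5%) were called for the gate in wildtype cells, 1729 higher (9.67%) and 1398 lower (7.82%) in SP, at a Benjamini-Hochberg adjusted p below 0.05 in edgeR's quasi-likelihood test. In Etv2-negative cells 1555 genes (8.7%) were called, 873 higher (4.89%) and 682 lower (3.82%). The calls shared 1110 genes of the same direction (6.21% of those tested), 615 higher (3.44%) and 495 lower (2.77%), which is 35.5% of the wildtype calls and 71.4% of the Etv2-negative calls. Only 3 genes were called in opposite directions. In a bulk population, fewer cells that express a gene and less RNA per cell cannot be told apart, which holds for every gate effect given here. Without wildtype DP replicate 3 or wildtype SP replicate 1 the wildtype calls fell to 2008 and 2062. Without Etv2-negative DP replicate 1 or 2, or SP replicate 1 or 3, the Etv2-negative calls fell to 629, 621, 848 and 810, and the shared calls to 533, 536, 695 and 661.

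The difference of the gate effects itself was called for 31 genes (0.173% of those tested), 28 positive (0.157%) and 3 negative (0.0168%). This split by sign depends on the setting. It was 138 positive and 67 negative with DESeq2, 80 and 36 with limma-voom, and 255 and 215 without an expression filter. Of 2014 genes called in wildtype and not in Etv2-negative cells, 23 had a difference that passed the test. The unadjusted p of the difference was under 0.05 for 1609 genes. A call in one set and none in the other therefore does not mark a gene as different here. For 1335 of the 2014 the 95% interval of the difference lay within 2-fold in either direction, and so did it for 818 (73.7%) of the 1110 shared genes. The same held for 11522 (64.5%) of all 17871 genes tested, so such intervals are not particular to gate genes. Across 10259 genes with at least 5 CPM in the higher gate of both sets, the effects had a standard deviation of 0.40 in wildtype and 0.32 in Etv2-negative cells. As a description across genes, which are not independent replicates, the effects of the sets had a Pearson r of 0.81 and a Spearman rho of 0.64. The median standard error of a difference over these genes was 0.133.

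**Figure D1:**
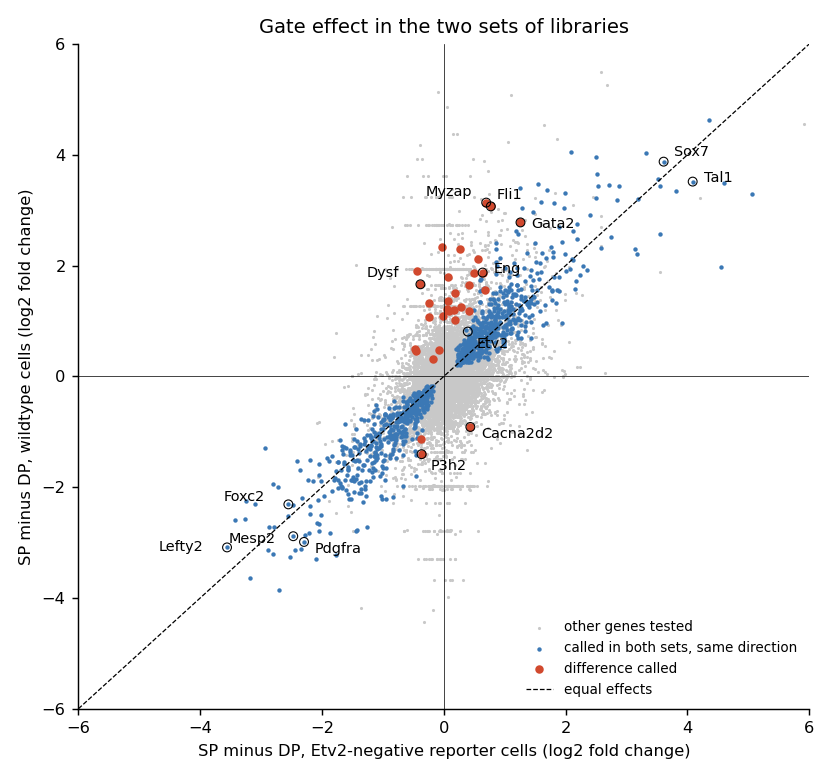
Each point is a gene, with its SP minus DP log2 fold change in Etv2-negative cells on the x axis and in wildtype cells on the y axis. Genes called in both sets with the same direction lie mostly in the upper right and lower left, the 31 genes called for the difference lie away from the diagonal (8 of them were called in both sets), horizontal bands of grey points are genes near 0 counts in the wildtype libraries, and 3 genes fall outside the axes, which end at 6.

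Among shared genes higher in SP with 5 CPM or more in both sets and gates that did not overlap, Tal1 and Sox7 had the largest effects by the smaller of the 2, and Lmo2 was also among the 8 largest. Tal1, a helix-loop-helix factor required for all blood lineages, stood at 10.7, 15.5 and 10.4 CPM in wildtype DP and at 159, 124 and 135 CPM in wildtype SP. In Etv2-negative cells Tal1 stood at 0.839, 1.1 and 0.750 CPM in DP and at 8.36, 17.2 and 20.7 CPM in SP. The gates were far apart in both sets, with log2 effects of 3.52 ± 0.24 and 4.09 ± 0.40 and a difference of -0.57 with a 95% interval from -1.58 to 0.44. Sox7, a SOX factor of early endothelium, stood at 2.92, 3.82 and 1.99 CPM in wildtype DP against 49.8, 39.4 and 39.6 CPM in SP, and at 0.240, 0.337 and 0.682 CPM in Etv2-negative DP against 2.83, 6.26 and 6.54 CPM in SP. Its effects were 3.88 ± 0.29 and 3.61 ± 0.47. Lmo2, the partner of Tal1 in its DNA-binding complex, stood at 12.5, 17.0 and 10.2 CPM in wildtype DP against 110, 96.1 and 122 CPM in SP, and at 3.44, 3.43 and 2.97 CPM in Etv2-negative DP against 7.74, 16.8 and 14.1 CPM in SP. Its effects were 3.04 ± 0.22 and 1.98 ± 0.26, and the difference of 1.07, with an interval from 0.33 to 1.80, had an adjusted p of 0.32. In Tal1, Sox7 and Lmo2, Etv2-negative SP replicate 1 was the lowest of its 3 libraries.

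Signalling and membrane genes rose with them. Pdgfb, a growth factor that endothelial cells release to recruit mural cells, stood at 8.83, 10.1 and 4.96 CPM in wildtype DP against 37.5, 34.7 and 31.1 CPM in SP, and at 2.56, 2.05 and 3.10 CPM in Etv2-negative DP against 13.0, 11.1 and 9.31 CPM in SP. Its effects of 2.11 ± 0.21 and 2.12 ± 0.24 differed by -0.01, with an interval from -0.68 to 0.66 that lies within 2-fold. The other shared genes named by the same rule were Exoc3l, with effects of 2.75 in wildtype and 2.19 in Etv2-negative cells, the chloride channel family member Clic6 with 2.13 and 2.10, the inositol phosphatase Synj2 with 1.91 and 2.00, and Parm1 with 1.92 and 2.35. All 8 were called in both sets, as the rule requires.

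The 8 largest shared genes lower in SP included 5 of the paraxial mesoderm list, Mesp2, Dll1, Foxc2, Pcdh8 and Pcdh19. Mesp2, a transcription factor of somite segmentation, stood at 20.8, 15.0 and 17.0 CPM in wildtype DP against 2.25, 2.78 and 2.09 CPM in SP, and at 16.9, 14.8 and 11.7 CPM in Etv2-negative DP against 2.80, 3.10 and 1.90 CPM in SP. The gates did not overlap in either set, and the effects were -2.89 ± 0.20 and -2.47 ± 0.20. Lefty2, a secreted inhibitor of Nodal, had effects of -3.09 ± 0.45 and -3.56 ± 0.49, with DP libraries from 96.4 to 212 CPM in wildtype and from 35.4 to 113 CPM in Etv2-negative cells. Foxc2, a forkhead factor of paraxial mesoderm, fell by 2.31 and 2.55 on the log2 scale, and the Notch ligand Dll1 by 2.86 and 2.27. The protocadherins Pcdh19 (-3.27 and -2.52) and Pcdh8 (-3.14 and -2.45), the synaptic scaffold gene Rimbp2 (-3.86 and -2.70) and Pdgfra complete the 8 largest, and none of the 8 had a called difference.

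The 31 genes with a called difference had a wildtype gate effect in every case, since all 31 were also called in wildtype. In 30 of them the wildtype effect was the larger in size, the exception being Fgf3. In Etv2-negative cells 8 were called, 6 in the same direction as in wildtype and 2, Fgf3 and She, in the opposite one. By the rule for naming genes, the 10 most positive at 5 CPM or more in both sets were Fli1, Dysf, Fzd10, Arap3, Gata2, Hspa12a, Kctd12, Col14a1, Slc46a3 and Eng, the 3 negative were Cacna2d2, P3h2 and Gli1, and Flt4 was added from the gene lists. The others are named to complete the 31, after their values were seen. SP and DP values did not overlap for 29.6% of all genes tested in wildtype and for 31.9% in Etv2-negative cells, so a lack of overlap is common and is given below as a description.

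The transcription factors among them were Fli1, Gata2, Etv6, Stat5b and Gli1. Fli1, an ETS factor of endothelium and megakaryocytes at chr9:32422204-32542861 (GRCm38), stood at 3.52, 3.78 and 4.03 CPM in wildtype DP and at 40.8, 33.8 and 25 CPM in wildtype SP. In Etv2-negative cells it stood at 3.16, 3.52 and 4.33 CPM in DP and at 3.38, 7.19 and 7.27 CPM in SP. Wildtype SP was far above DP in every library, while Etv2-negative SP replicate 1 lay within the DP range. The effects were 3.14 ± 0.25 and 0.70 ± 0.26, a difference of 2.44 (5.43-fold, 95% interval 1.66 to 3.22 in log2) with an edgeR adjusted p of 0.0230. Without Etv2-negative SP replicate 1 the difference was 2.15 and still called. It was not called without Etv2-negative DP replicate 2 (adjusted p = 0.0715), wildtype DP replicate 3 (0.0639) or wildtype SP replicate 1 (0.0651), with sizes of 2.46, 2.48 and 2.26.

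Gata2, a zinc finger factor of blood progenitors at chr6:88193891-88207032, changed in both sets but to different extents. It stood at 17.3, 24.7 and 17.6 CPM in wildtype DP against 142, 123 and 144 CPM in SP, and at 8.39, 8.63 and 7.43 CPM in Etv2-negative DP against 13.6, 22.2 and 22.7 CPM in SP. The gates did not overlap in either set. The effects of 2.78 ± 0.17 and 1.26 ± 0.18 differed by 1.52 (2.87-fold, edgeR adjusted p = 0.0349), and the difference was 1.31 without Etv2-negative SP replicate 1, again the lowest of its group. The call was lost without any 1 of 6 libraries, namely Etv2-negative DP replicates 1 and 2, wildtype DP replicates 1 and 3 and wildtype SP replicates 1 and 3, with adjusted p from 0.0547 to 0.128.

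The other factors had smaller differences. Etv6, an ETS repressor needed for blood stem cells, had effects of 0.32 and -0.17, and the cytokine-signal transducer Stat5b of 1.01 and 0.19. The Etv6 difference of 0.49 was called in none of the 12 fits that left out 1 library, with adjusted p up to 0.148 and sizes of at least 0.44, and was not called with RLE scaling, upper-quartile scaling or all 21 libraries in the fit. That of Stat5b was kept in 3 of the 12, without Etv2-negative SP replicate 3, wildtype DP replicate 2 or wildtype SP replicate 3. Gli1, the transcriptional output of Hedgehog signalling, was lower in SP in both sets. It stood at 13.6, 12 and 13.2 CPM in wildtype DP against 5.77, 6.27 and 5.74 CPM in SP, and at 20.1, 20.3 and 19.6 CPM in Etv2-negative DP against 14.8, 16.1 and 15.6 CPM in SP. The effect was -1.13 ± 0.09 in wildtype and -0.37 ± 0.08 in Etv2-negative cells, a difference of -0.76 ± 0.12. Leaving out a library ended its call except for wildtype DP replicate 2 and wildtype SP replicate 2, with sizes of at least 0.72.

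Receptors formed the next group, with Eng, Flt4, F2r, Plxnd1, Ramp2 and Fzd10. Eng, the endoglin co-receptor of BMP and TGF-beta on endothelium at chr2:32646595-32682669, stood at 13.3, 11.9 and 9.62 CPM in wildtype DP against 48.1, 37.9 and 41.9 CPM in SP, and at 9.51, 8.35 and 11.4 CPM in Etv2-negative DP against 14.7, 14.6 and 16.1 CPM in SP. SP was higher without overlap in both sets, by 1.87 ± 0.13 and 0.64 ± 0.14, and the difference was 1.24 (2.36-fold, edgeR adjusted p = 0.0283). Flt4, the receptor VEGFR3 for VEGF-C, stood at 7.07, 9.63 and 8.02 CPM in wildtype DP against 25.6, 26.8 and 25 CPM in SP, and at 6.59, 5.72 and 5.32 CPM in Etv2-negative DP against 7.81, 8.74 and 6.96 CPM in SP. Its effects were 1.65 ± 0.13 and 0.42 ± 0.13, the latter not called. The difference was lost without any 1 of 6 libraries for Eng and 5 for Flt4, with a size of at least 1.1 for Eng and 1.12 for Flt4 in all 12 such fits.

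F2r, the thrombin receptor PAR1 at chr13:95601803-95618487, was among the most abundant of the 31. It stood at 173, 175 and 161 CPM in wildtype DP and at 418, 360 and 306 CPM in wildtype SP. In Etv2-negative cells it stood at 121, 136 and 124 CPM in DP and at 110, 134 and 135 CPM in SP, so the wildtype gates were apart and the Etv2-negative gates overlapped. The effects were 1.09 ± 0.11 and -0.01 ± 0.11, and the difference of 1.1 (edgeR adjusted p = 0.0166) was kept in 10 of 12 fits that left out a library, the exceptions being Etv2-negative DP replicate 2 and wildtype DP replicate 3. Plxnd1, a semaphorin receptor of endothelial cells, stood at 62.6, 75.3 and 62.1 CPM in wildtype DP against 168, 157 and 148 CPM in SP, and at 36.0, 35.6 and 39.6 CPM in Etv2-negative DP against 43.2, 46.6 and 45.7 CPM in SP. Its difference of 0.96 ± 0.12 (1.94-fold, adjusted p = 0.0120) was called in all 12 such fits.

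The Wnt receptor Fzd10 stood at 21, 30.6 and 20.2 CPM in wildtype DP against 75.8, 53.0 and 50.7 CPM in SP, and at 19.2, 23.0 and 22.9 CPM in Etv2-negative DP against 15.3, 20.5 and 19.0 CPM in SP. Its effects were 1.32 ± 0.18 and -0.25 ± 0.18, and the call was kept in 4 of the 12 fits. Ramp2, a partner of the adrenomedullin receptor, had effects of 2.31 and 0.26, with DP libraries of 2.62 to 5.09 CPM in wildtype and 3.18 to 5.15 CPM in Etv2-negative cells.

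Signalling genes were the next group. Arap3, a GTPase-activating protein for Arf6 and RhoA in endothelial cells, stood at 13.7, 14.8 and 9 CPM in wildtype DP against 64.2, 50.8 and 47.8 CPM in SP, and at 9.59, 8.69 and 11.4 CPM in Etv2-negative DP against 14.1, 15.0 and 14.8 CPM in SP. SP was above DP in both sets, with effects of 2.12 ± 0.16 and 0.57 ± 0.17, the latter just short of a call at an edgeR adjusted p of 0.052, and the difference was 1.55. The fibroblast growth factor Fgf3 moved in opposite directions. It stood at 122, 114 and 109 CPM in wildtype DP against 173, 138 and 162 CPM in SP, and at 95.3, 98.8 and 82.2 CPM in Etv2-negative DP against 59.6, 67.1 and 74.5 CPM in SP. Both effects were called, at 0.45 ± 0.10 and -0.46 ± 0.10, and the difference was 0.91. It was called in 5 of the 12 fits that left out 1 library, with adjusted p up to 0.11 in the others and sizes of at least 0.82, and it was not called with all 21 libraries in the fit.

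She, an SH2-domain adaptor, was also called in opposite directions, with effects of 0.49 and -0.48. Its difference of 0.97 was called in 1 of the 12 fits that left out 1 library, that without wildtype DP replicate 2, with adjusted p up to 0.143 in the others. Lrmp was the third gene called in opposite directions, with effects of 0.67 and -0.81, but its difference of 1.48 missed the threshold at an edgeR adjusted p of 0.0699. The MAP kinase phosphatase Dusp2 had effects of 1.22 and 0.05, the G-protein gamma subunit Gngt2 of 2.33 and -0.03, and Kctd12, an auxiliary subunit of GABA-B receptors, of 1.51 and 0.18.

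The remaining members were structural genes, enzymes and transporters. Hspa12a, a distant member of the HSP70 family, stood at 14.9, 17.1 and 15.2 CPM in wildtype DP against 53.5, 58.2 and 61.1 CPM in SP, and at 7.79, 7.80 and 9.38 CPM in Etv2-negative DP against 10.1, 12.4 and 12.8 CPM in SP. It was higher in SP in both sets, by 1.87 ± 0.11 and 0.50 ± 0.11, and its difference of 1.37 had the lowest adjusted p of the 31, 0.0103. Col14a1, which encodes collagen XIV, stood at 13.1, 12.3 and 10.7 CPM in wildtype DP against 22.3, 28.2 and 25.5 CPM in SP, and at 8.75, 8.90 and 11.1 CPM in Etv2-negative DP against 7.70, 8.34 and 8.17 CPM in SP. Wildtype SP was higher by 1.07 ± 0.12, the Etv2-negative effect of -0.25 ± 0.12 was not called, and the difference was 1.32. Hspa12a, Col14a1, Plxnd1 and the lysosomal protease Ctsh (effects of 1.79 and 0.06) were the 4 genes called in each of the 12 fits that left out 1 library.

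Dysf, which encodes the membrane-repair protein dysferlin, stood at 3.67, 5.15 and 3.41 CPM in wildtype DP against 14.7, 12.7 and 11.3 CPM in SP, and at 6.31, 8.23 and 5.01 CPM in Etv2-negative DP against 4.32, 5.97 and 4.71 CPM in SP. Its effects were 1.66 ± 0.20 and -0.38 ± 0.20, the latter not called. Myzap, a component of cardiac cell junctions that is also found in endothelium, had effects of 3.07 ± 0.23 and 0.77 ± 0.23, and its difference of 2.30 was lost in 1 of the 12 fits, without wildtype DP replicate 3. The lysosomal transporter Slc46a3 had effects of 1.36 and 0.06, the sialyltransferase St3gal1 of 1.18 and 0.09, Enc1 of 1.19 and 0.16, Brinp1 of 1.91 and -0.44, Ehbp1l1 of 1.19 and 0.41, the antioxidant enzyme sulfiredoxin, Srxn1, of 1.55 and 0.67, and the translation factor Eif5b of 0.47 and -0.07.

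The negative differences beside Gli1 were P3h2 and Cacna2d2. P3h2, a collagen prolyl 3-hydroxylase, stood at 67.7, 65.8 and 77.2 CPM in wildtype DP against 24.9, 26.5 and 28.2 CPM in SP, and at 66.4, 69.0 and 75.7 CPM in Etv2-negative DP against 50.5, 47.1 and 66.4 CPM in SP. Wildtype SP fell by 1.40 on the log2 scale, the Etv2-negative effect of -0.36 ± 0.11 was not called, and the difference was -1.04 ± 0.16. Cacna2d2, a calcium channel subunit, stood at 36.3, 51.4 and 65.5 CPM in wildtype DP against 23.1, 29.8 and 28.4 CPM in SP, and at 28.2, 26.8 and 26.3 CPM in Etv2-negative DP against 37.7, 35.9 and 36.3 CPM in SP. The wildtype effect was -0.91 ± 0.16, the Etv2-negative effect of 0.44 ± 0.16 was not called, and the wildtype DP libraries were widely spread. The difference of -1.35 kept its call in 2 of the 12 fits that left out 1 library, those without wildtype DP replicate 1 or wildtype SP replicate 2, with adjusted p up to 0.128 in the others.

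The number of genes called for the difference varied with the libraries. It was 5 without wildtype DP replicate 3, 6 without wildtype SP replicate 1, 8 and 9 without Etv2-negative DP replicates 2 and 1, 11, 19 and 18 without Etv2-negative SP replicates 1, 2 and 3, and 16 without wildtype SP replicate 3. All 31 genes kept the sign of their difference in each of these fits and in the other settings tried. That is a description and no support, since the 31 were chosen by a call on these same libraries. Over the 12 fits the call was kept in none for Etv6, in 1 for She, Enc1 and Brinp1, in 2 for Cacna2d2, Gli1, Dusp2, Eif5b, Gngt2, Kctd12, Slc46a3 and Srxn1, and in 3 for Ehbp1l1, St3gal1 and Stat5b. It was kept in 4 for Fzd10 and Ramp2, in 5 for Fgf3, in 6 for Gata2 and Eng, in 7 for Flt4 and P3h2, in 9 for Fli1 and Arap3, in 10 for F2r and Dysf, in 11 for Myzap and in 12 for the others.

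**Figure D2:**
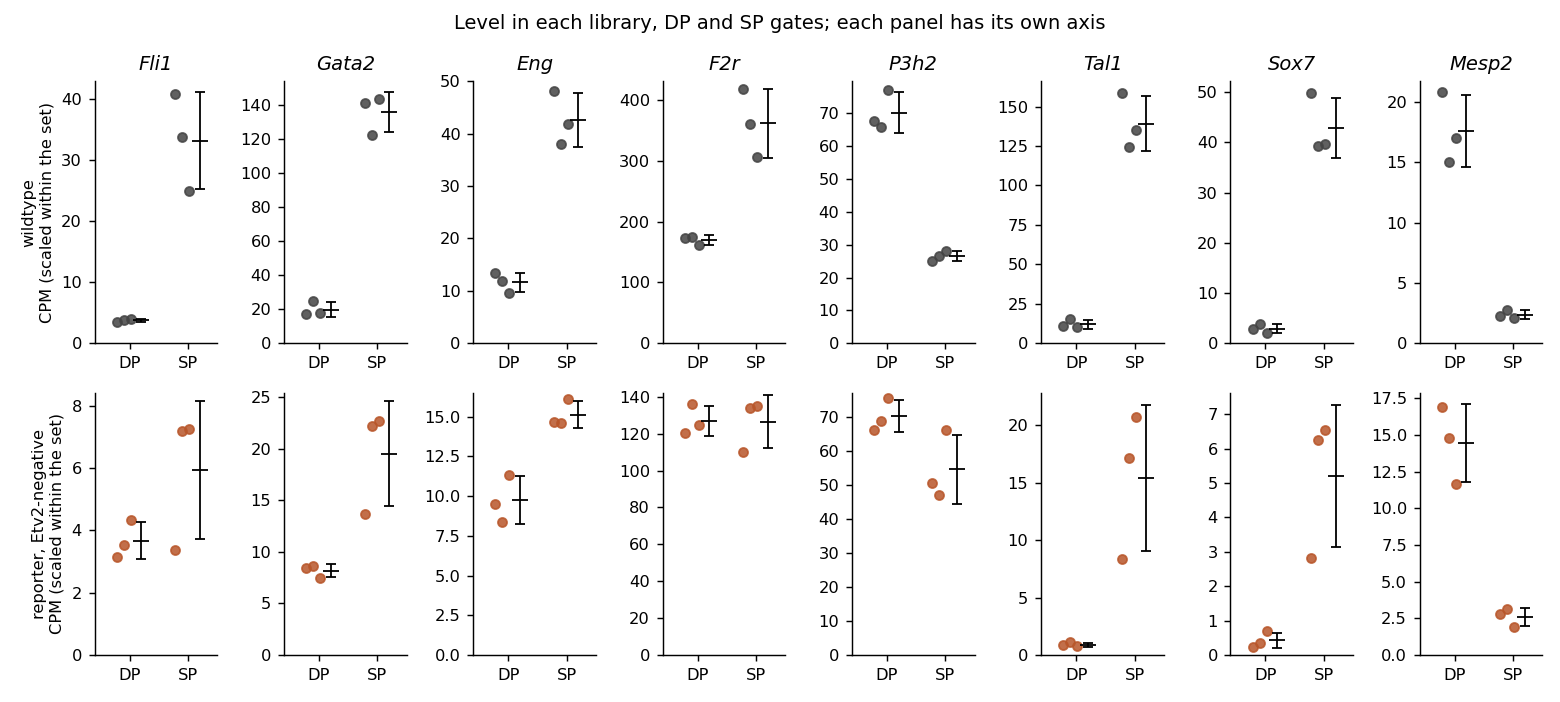
CPM in each library (points) with the mean and standard deviation of the group (bar) for 5 genes called for the difference and 3 shared gate genes, wildtype above and Etv2-negative below; every panel has its own axis. Wildtype SP libraries of F2r lie between 306 and 418 CPM, above all DP libraries, while the Etv2-negative gates overlap.

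**Figure D3:**
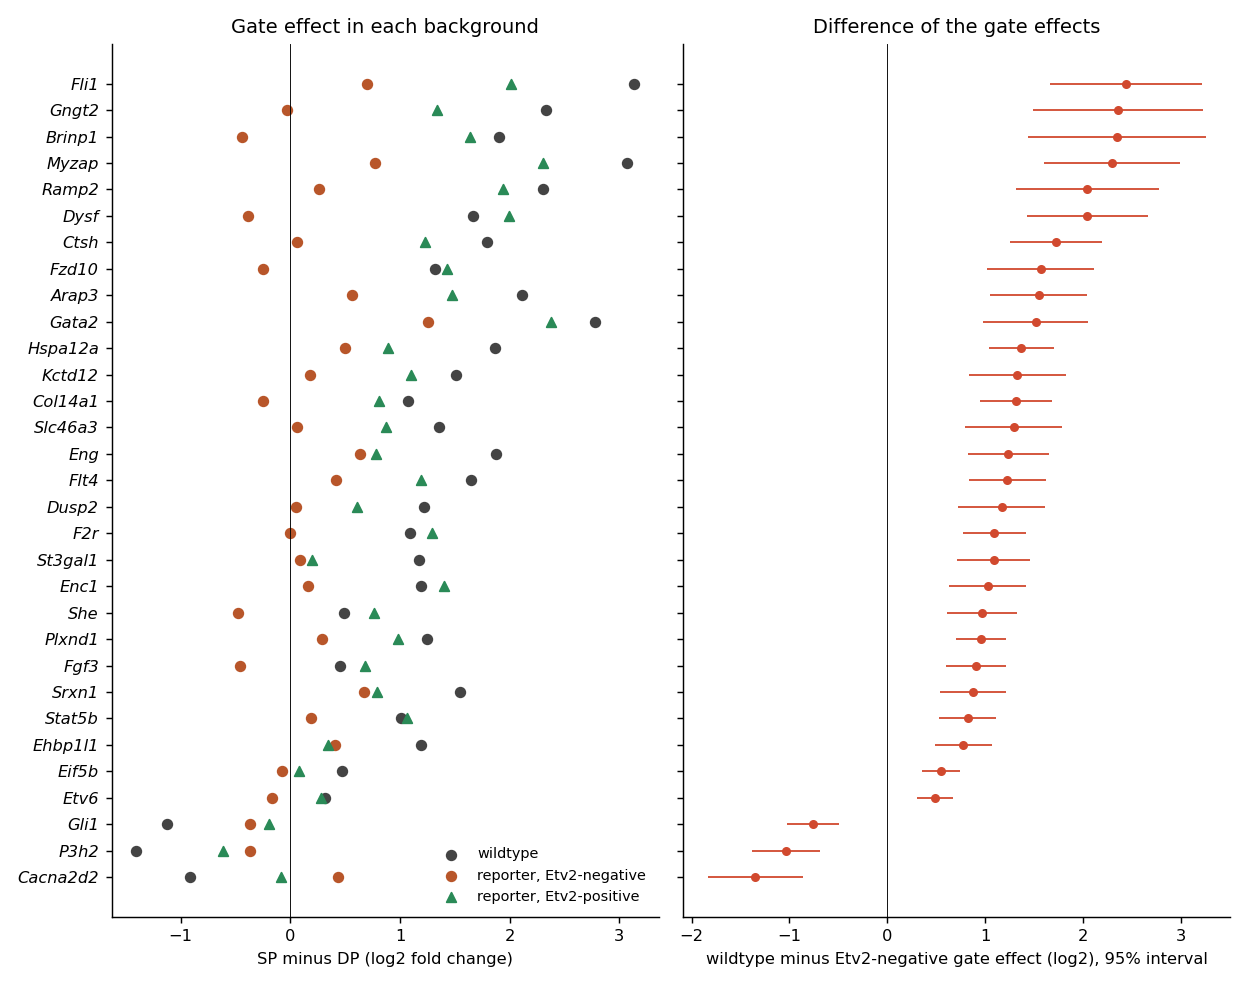
The left panel gives the SP minus DP log2 fold change of the 31 genes in wildtype, Etv2-negative and Etv2-positive cells, and the right panel the wildtype minus Etv2-negative difference with its 95% interval. Fli1 has the largest difference at 2.44, and 28 of the 31 lie above 0.

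The promoters of some of these genes are shown because ETS factors such as Etv2 and Fli1 bind DNA at short words with a purine core, and GATA factors at words that hold their name. The word CCGGAA and the related word CAGGAA stood for ETS factors, AGATAA stood for GATA factors, and all were searched on both strands in the 250 bases before the RefSeq start (GRCm38.p6). The ETS words share their last letters and cannot match at the same place. Where a gene had more than 1 listed start, only the window listed first was used. Windows were matched for 21 of the 31 genes, and Fli1, with the largest difference, was among those without one. An ETS word was present in 9 of the 21 (42.9%) and in 34.9% of the first-listed windows of all 27025 genes with one. The GATA word was present in 1 of the 21 (4.8%) and in 10.3% of all. Shown first are F2r at chr13:95618467-95618716 (minus strand) and Plxnd1 at chr6:115995006-115995255 (minus strand). They are 2 receptor genes whose windows hold an ETS word, and the window of the receptor gene Fzd10, not shown, holds one too. Then follow Gata2 at chr6:88193641-88193890 (plus strand), called for the difference, and Tal1 at chr4:115056176-115056425 (plus strand), shared by both sets. Each reads 5′ to 3′ toward the gene, with matches in capitals.
F2r: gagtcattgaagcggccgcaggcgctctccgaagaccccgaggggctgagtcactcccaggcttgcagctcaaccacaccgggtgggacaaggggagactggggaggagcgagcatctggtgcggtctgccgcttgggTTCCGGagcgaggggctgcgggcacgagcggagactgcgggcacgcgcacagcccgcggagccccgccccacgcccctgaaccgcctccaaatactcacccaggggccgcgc
Plxnd1: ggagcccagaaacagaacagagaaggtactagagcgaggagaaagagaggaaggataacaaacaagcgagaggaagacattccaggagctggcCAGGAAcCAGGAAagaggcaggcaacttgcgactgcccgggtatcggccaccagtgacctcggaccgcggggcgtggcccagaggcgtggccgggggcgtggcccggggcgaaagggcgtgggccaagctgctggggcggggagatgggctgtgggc
Gata2: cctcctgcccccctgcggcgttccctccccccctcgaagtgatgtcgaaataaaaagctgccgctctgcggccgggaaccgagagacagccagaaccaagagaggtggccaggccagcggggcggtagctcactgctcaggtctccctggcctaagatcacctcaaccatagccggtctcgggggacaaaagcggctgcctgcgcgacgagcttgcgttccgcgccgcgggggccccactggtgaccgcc
Tal1: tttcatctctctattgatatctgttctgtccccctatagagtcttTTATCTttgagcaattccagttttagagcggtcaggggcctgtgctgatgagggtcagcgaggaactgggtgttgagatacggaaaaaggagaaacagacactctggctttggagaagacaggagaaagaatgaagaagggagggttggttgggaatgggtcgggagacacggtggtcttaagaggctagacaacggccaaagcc
The F2r match is the first ETS word on the opposite strand, 112 bases before the start, the Plxnd1 window holds the related ETS word at 2 places, the Gata2 window holds none of the words, and the Tal1 window holds the GATA word on the opposite strand. Gata2 and Tal1 each have 2 windows listed, and the other window of each is not described here. A match is a description of the letters and not a bound site.

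Gene lists place these genes among their kind, and their counts are read against the shares of all genes called in each direction given above. Of 23 hemato-endothelial regulators, all tested, 20 rose and 2 fell in wildtype SP, and 13 rose and 1 fell in Etv2-negative SP, the latter all shared. The median effect was 2.83 in wildtype and 1.34 in Etv2-negative cells, against medians of 0.00 over all genes. The summed level of the 23 was 596.5 to 654.8 CPM in wildtype DP against 1105 to 1317 CPM in SP. In Etv2-negative cells the sums overlapped, at 489.8 to 510.5 CPM in DP and 482.3 to 556.8 CPM in SP. Fli1 and Gata2 were the 2 members with a called difference, and 13 of the 23 had 5 CPM or more in both sets. Examples from here on were chosen after their values were seen. Erg, an ETS factor of endothelium, had effects of 3.43 ± 0.38 and 3.54 ± 0.91, the erythroid repressor Gfi1b of 4.62 ± 0.64 and 4.35 ± 1.42, Ikzf1 of 3.35 and 3.81, and Runx1, the factor of definitive blood, of 1.54 and 1.06. Lyl1, a relative of Tal1, had effects of 4.05 and 2.08, and Sox18 of 3.71 and 0.73, the latter not called. The Sox18 difference of 2.98 had an edgeR adjusted p of 0.115 and an interval from 1.56 to 4.40. Within wildtype, Sox18 stood at 0.532 to 1.05 CPM in DP against 6.95 to 13.6 CPM in SP, and within Etv2-negative cells at 0.239 to 0.519 CPM against 0.291 to 1.11 CPM.

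Of 28 endothelial genes, 23 were tested and 4 of these had 5 CPM or more in both sets. In wildtype SP 20 rose and 1, Thbd, fell, and in Etv2-negative SP 11 rose and Thbd fell. Median effects were 2.21 and 0.86, or 0.84 in Etv2-negative cells with Cldn5, which had no count in a whole group, at the bound its floor gives. The adhesion molecule Cdh5, or VE-cadherin, stood at 1.20 to 2.20 CPM in wildtype DP against 15.1 to 24.2 CPM in SP, and at 0.0918 to 0.136 CPM in Etv2-negative DP against 1.45 to 4.05 CPM in SP. Its effects were 3.50 ± 0.31 and 4.60 ± 0.72, both called, with the Etv2-negative DP level near the limit of detection. The angiopoietin receptor Tek had effects of 3.65 and 2.52, and Tie1 of 3.46 and 2.71. Pecam1 had 1.80 and 0.28, Egfl7 1.85 and 0.44 and Cd34 1.97 and 0.50, with no call in Etv2-negative cells and none for the difference, so that Eng and Flt4 are the 2 members whose effects were shown to differ. Over the 28 genes the summed level was 92.0 to 119 CPM in wildtype DP, 304 to 366 CPM in wildtype SP, 63.5 to 72.7 CPM in Etv2-negative DP and 84.3 to 111 CPM in Etv2-negative SP.

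Among 19 genes of the blood cell surface and effector list, 12 were tested. In wildtype SP 9 rose, among them the integrins Itga2b (2.35) and Itgb3 (2.47), and 3 of these rose in Etv2-negative SP, Itgb3 (2.18), Cd44 (0.87) and Arhgdib (0.96). Spn fell in both, with effects of -1.02 and -1.06. Of 12 primitive erythroid genes 3 were tested. The arterial and Notch list had 14 of 16 tested, with 7 higher and 2 lower in wildtype and 3 higher and 3 lower in Etv2-negative cells. In it Gja4, a gap junction gene of arteries, had effects of 3.30 and 0.75, the Notch ligand Dll4 of 2.63 and 0.51, and the receptor Acvrl1 of 1.58 and -0.15. No difference was called in these 3 lists, and the edgeR adjusted p was 0.187 for Gja4, 0.215 for Dll4 and 0.145 for Acvrl1.

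Lists of other mesoderm types had close medians and counts in the 2 sets. Of 19 paraxial mesoderm genes 15 were tested, 11 fell in wildtype and 10 in Etv2-negative SP, all 10 shared, with medians of -2.21 and -2.09. Of 24 primitive streak genes, including those of newly formed mesoderm, 16 fell and 1 rose in wildtype, and 14 fell and 1 rose in Etv2-negative SP, with medians of -1.07 and -1.03. The 1 that rose was Cdx4 in both. Eomes (-1.07 and -1.14), Mesp1 (-1.89 and -1.48), Snai1 (-1.60 and -1.30) and Tdgf1 (-1.64 and -1.58) were among those that fell in both. Of 18 lateral plate and extraembryonic mesoderm genes 8 rose in each set and 7 of these were shared, including Hand1 (0.55 and 0.50), Bmp4 (0.81 and 0.81) and Msx2 (0.64 and 0.68). No difference was called in these 3 lists.

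Receptors and ligands of VEGF, PDGF, apelin and chemokines had 6 members higher and 3 lower in wildtype, and 3 of each in Etv2-negative SP, of 21 tested. Flt4 was the 1 member with a called difference. Flt1, a decoy receptor for VEGF, had effects of 0.91 and 0.08, and the co-receptor Nrp2 of 0.71 and 0.08, each called in wildtype alone. Aplnr, the apelin receptor, fell in both, by 0.56 and 0.73, and so did Cxcr4, by 1.43 and 0.67. Of 13 BMP targets 7 rose in wildtype and 3 rose and 1 fell in Etv2-negative SP. Id3 had effects of 0.84 and 0.39 and Smad6 of 1.02 and 0.48, and Id1 fell in Etv2-negative SP (-0.43) with 0.17 in wildtype.

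**Figure D4:**
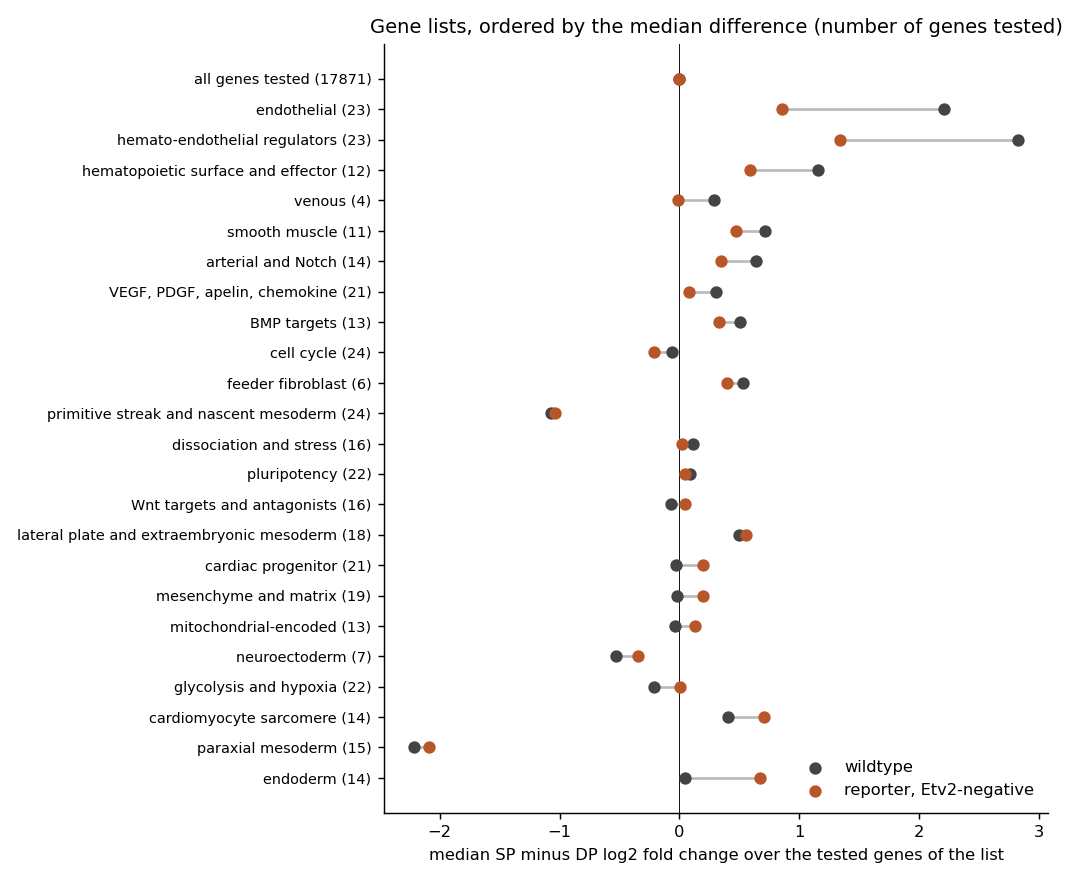
Median SP minus DP log2 fold change over the tested genes of each list, in wildtype and in Etv2-negative cells; a list with under 4 tested genes is left out. The endothelial list has medians of 2.21 and 0.86, while the paraxial mesoderm list has -2.21 and -2.09.

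The reporter line also gives the effect of the Etv2 reporter within a gate, tdTomato-positive against tdTomato-negative. In SP it shares no library with the wildtype gate effect. Of 1699 genes higher in wildtype SP and tested in both fits, 980 (57.7%) were also higher in reporter-positive SP and 28 (1.65%) lower, where 13.2% of all genes tested in both were higher and 12.5% lower. Of 1380 genes lower in wildtype SP, 756 (54.8%) were lower and 11 (0.797%) higher. The 980 were 42.7% of the genes called higher for the reporter, and the 756 were 34.6% of those called lower. Among genes higher in wildtype SP, the share also higher for the reporter was 60.3% where Etv2-negative cells had no call. It was 53.2% where they were called higher as well. For genes lower in wildtype SP the matching shares were 56% and 52.6%. These splits use the Etv2-negative gate call, and the Etv2-negative SP libraries enter both that call and the reporter effect. The shares are therefore not independent of the split, and no conclusion is drawn from comparing them.

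The reporter effect shares Etv2-negative libraries with the difference tested above, so its values are only set beside it. Fli1 had a reporter effect of 1.99 in SP and 0.67 in DP, Gata2 of 2.05 and 0.93, Eng of 1.26 and 1.12, Flt4 of 1.26 and 0.49, F2r of 1.52 and 0.23, Hspa12a of 2.39 and 2.00 and Fzd10 of 1.69 and 0.01. The gate effect inside reporter-positive cells was 2.01 for Fli1, 2.38 for Gata2, 0.78 for Eng and 1.29 for F2r. Tal1, shared by both gate comparisons, had reporter effects of 3.16 in SP and 4.14 in DP, and Sox7 of 3.33 and 4.21. Of the 3 genes with a negative difference, P3h2 had reporter effects of -1.15 and -0.89, Gli1 of -0.81 and -0.98 and Cacna2d2 of -0.20 and 0.32.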

How the data were processed

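Total RNA of sorted cells was sequenced, with a stranded total RNA kit per the labels' protocols. The values deposited by the authors are unnormalized counts for Ensembl genes, and the submitters' processing notes name featureCounts and mm10. Aligner, annotation and strand setting are not given in the sources used here, so overlapping genes on opposite strands could not be checked. The wildtype files also hold 4 summary entries of a kind that featureCounts does not write (3.98 to 5.25% unmapped, 7.34 to 8.75% multimapping, 5.04 to 7.91% without a feature and 4.30 to 4.83% ambiguous reads), which entered neither library sizes nor tests. Of 55487 gene IDs 55227 were named from GENCODE M21.

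The 12 libraries were fitted together in R 4.3.3 with edgeR 4.0.16 (a term per group, TMM scaling within each set, filterByExpr, quasi-likelihood F test, two-sided), with Benjamini-Hochberg adjustment over 17871 genes and calls below 0.05. Contrasts were SP minus DP in each set and their difference. Standard errors and 95% intervals use the fitted variances of the model, a form chosen after the data were seen. The planned form, fold change over root F, breaks down near 0 counts and put 11522 genes within 2-fold in place of 11480, and the counts of intervals in the text use it. Reporter effects came from a fit of the 12 reporter-line libraries over 17690 genes. The test was tried on simulated counts with known changes. Floors cover counting error only.

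The comparison, members and 24 gene lists were chosen with earlier results of these data known. Etv2, Kdr, Pdgfra and T were always named. Named as well were the 8 highest and 8 lowest shared genes by the smaller absolute effect, with 5 CPM in both sets and gates that do not overlap, the 10 most positive and 10 most negative called differences at 5 CPM, up to 4 called members per list, and called genes at 5 CPM in 1 set and under 1 CPM in the other, of which there were none. Predicted, ribosomal protein, mitochondrial, pseudogene and small RNA genes were left out. Lists are described by counts and medians, with no set test. Alternatives were other scalings and filters, DESeq2 1.42.0, limma 3.58.1 (voom), other sets of libraries or genes, a 2-fold minimum, a replicate block and leaving out each library. Tables and figures were made with Python 3.11.15, pandas 2.3.3 and matplotlib 3.10.9.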

Additional observations from a re-analysis of the deposited data

Results flagged for a closer look

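Genes named by rule whose SP minus DP effect differed between the sets, by the edgeR quasi-likelihood test of the difference itself, are given with the wildtype minus Etv2-negative difference in log2. The positive ones were Fli1 with 2.44, Dysf with 2.05, Fzd10 with 1.57, Arap3 with 1.55, Gata2 with 1.52, Hspa12a with 1.37, Kctd12 with 1.33, Col14a1 with 1.32, Slc46a3 with 1.29, Eng with 1.24 and Flt4 with 1.23. The negative ones were Gli1 with -0.758, P3h2 with -1.04 and Cacna2d2 with -1.35. Wildtype SP lay above DP in 3 of 3 libraries for each positive gene and below DP in 3 of 3 for each negative gene. That is a description and no support, since all were also called in wildtype from these same libraries. Wildtype gates did not overlap for 29.6% of all genes tested. In Etv2-negative cells the gates overlapped for some of these genes, such as Fli1, Dysf and Fzd10, and not for others, such as Gata2 and Eng. The call was kept in 2 of 12 fits that left out 1 library for Cacna2d2, Gli1, Kctd12 and Slc46a3, in 4 for Fzd10, in 6 for Gata2 and Eng, in 7 for Flt4 and P3h2, in 9 for Fli1 and Arap3, in 10 for Dysf and in 12 for Hspa12a and Col14a1. Groups of 3 libraries were too small for a check of outlying libraries.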

How the results depend on the processing

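The 31 differences kept their sign in every alternative, which is no support, since they were chosen by a call on these same libraries. No called difference of a named gene reversed, and reversal of the other calls was not checked. Genes called in opposite directions in the 2 sets moved from 3 to 26 with a replicate block, 22 without a filter and 19 with limma-voom. The number of calls for the difference moved from 31 to 470 without a filter (255 positive, 215 negative) and 205 with DESeq2 (138 positive, 67 negative). It was 116 with limma-voom (80 and 36) and 251 with each set fitted on its own (164 and 87). With a replicate block it was 293 (164 and 129), and it lay between 5 and 37 when a library was left out. Without a library 11052 to 11396 genes had an interval within 2-fold. Calls in Etv2-negative cells moved from 1555 to 3300 with limma-voom, 458 with a 2-fold minimum and 2713 with the block, and to between 621 and 1899 without a library. Wildtype calls moved from 3127 to 951 with the 2-fold minimum and to between 2008 and 3523 without a library, and shared calls from 1110 to 1670 with limma-voom, 330 with the 2-fold minimum, 1865 with the block and 533 to 1253 without a library. With the block the differences of Pdgfra (adjusted p = 0.00683) and T (0.00569) were called as well. With upper-quartile scaling 23 of the 31 were still called, and with all 21 libraries in the fit 22. Over the named genes 1053 values kept their side of the threshold, 237 lost the call and 10 gained one. Libraries of the same replicate number correlated by 0.072 to 0.284 in wildtype and 0.0959 to 0.323 in Etv2-negative cells after group means were removed. Those of different numbers correlated by -0.317 to 0.0788 and by -0.252 to 0.0446. The same number was highest for every DP library except wildtype DP replicate 3, which correlated more with SP replicate 2 (0.0788). Because of that exception the numbers were not taken to pair libraries, but a pairing remains possible. Except where libraries or genes were taken away, the cause of these changes was not tested. Depth limits genes near 0.1 CPM, where effects have wide intervals.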

Other observations

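Genes of heart and endoderm were read in both gates. In each set a larger share of the 2 cardiac lists and of the endoderm list was called than of all genes. Over all genes that share was 17.5% in wildtype and 8.7% in Etv2-negative cells. Of 21 tested cardiac progenitor genes, 5 rose and 5 fell in wildtype SP and 4 rose and 4 fell in Etv2-negative SP. Nkx2-5, a homeobox factor of the early heart, had effects of 1.41 in wildtype and 0.20 in Etv2-negative cells (difference 1.22, edgeR adjusted p = 0.196), and Isl1, a factor of the second heart field, fell in both by 0.97 and 0.35. Among 14 tested sarcomere genes, 6 rose and 2 fell in wildtype and 4 rose in Etv2-negative SP. The sarcomere list summed to 381 to 506 CPM in wildtype DP against 718 to 846 CPM in SP, and to 396 to 488 CPM in Etv2-negative DP against 621 to 813 CPM in SP, with Tnnc1 at 1.36 and 1.34 and Myl4 at 1.07 and 0.86. Of 14 tested endoderm genes, 5 rose and 2 fell in wildtype SP and 4 rose and 1 fell in Etv2-negative SP. The endoderm list had a median of 0.05 in wildtype and 0.67 in Etv2-negative cells, with the keratins Krt8 (1.07 and 1.00) and Krt18 (1.39 and 1.43) higher in SP of both.

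Of 24 cell cycle genes 2 rose and 3 fell in wildtype SP, while none rose and 9 fell in Etv2-negative SP, among them Aurka (-0.37), Cdk1 (-0.35) and Plk1 (-0.32), with wildtype effects of 0.00, -0.10 and -0.02. The summed level of the 24 was lower in SP without overlap in both sets. It was 6697 to 6802 CPM in wildtype DP against 6349 to 6414 CPM in SP. In Etv2-negative cells it was 6020 to 6330 CPM in DP against 5409 to 5550 CPM in SP. Pou5f1, the pluripotency factor, fell in both sets (-0.62 and -1.15). Esrrb, another pluripotency factor, rose in wildtype (1.90) and had 0.42 in Etv2-negative cells. No gene of the 22 glycolysis and hypoxia genes was called in either set. In the dissociation and stress list 4 rose and 1 fell in wildtype SP, with Atf3 at 2.25, and none was called in Etv2-negative cells. No difference between the sets was called in any list of these 2 paragraphs.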
